A study of Homo sapiens with 6 samples.

Results

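The genes described here are the transcriptional co-activators YAP1 and WWTR1 (which encodes TAZ), the DNA-binding partners TEAD1 and TEAD4, the kinase gene LATS2, the angiomotin-like genes AMOTL1 and AMOTL2, and the target genes CTGF, CYR61 and ANKRD1. They were selected by symbol, and all 10 were found among the 23346 genes of the count table. CTGF and CYR61 are the symbols of that table, and the current names are CCN2 and CCN1. Poly(A) RNA was taken from BT549, an established breast cancer line of mesenchymal character with the genotype given as WT, and was sequenced in 6 libraries, to ask which genes respond to loss of BNC2, a zinc finger protein. In 3 libraries the cells had received 20 nM negative control (NC) siRNA, and in the other 3 they had received 20 nM of a mix of 3 siRNAs against BNC2. RNA was prepared at day 6 after transfection, with the medium changed at 6 h, and all cells grew in RPMI with FCS. The methods call the libraries biological replicates of 1 cell line, and an effect of these siRNAs on other transcripts cannot be told apart from an effect of BNC2 loss, since each group had a single siRNA preparation.

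YAP1 and TAZ have no DNA-binding domain of their own and act on genes by binding TEAD proteins. The Hippo kinases MST1 and MST2 activate LATS1 and LATS2, which phosphorylate YAP1 and TAZ and so hold them in the cytoplasm or mark them for breakdown, and angiomotins also bind and retain them. Activity is thus set largely at the protein level, by cell contact, cell shape and matrix stiffness, and transcripts such as CTGF, CYR61, ANKRD1, AMOTL2 and LATS2 are widely used as a readout, the last pair being known as feedback inhibitors that YAP1 and TAZ induce. Breast cancer cells of the mesenchymal kind, to which BT549 belongs, are known for high YAP1 and TAZ activity.

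The depth was 16093978 to 18246254 counts per library. By total counts alone, 3 counts then correspond to 0.164 to 0.186 CPM (counts scaled to a common library size). Levels are given as CPM after scaling with TMM, a normalisation in which most genes are taken to be stable, and fold changes are BNC2 siRNA against NC siRNA. BNC2 itself measured 65.6, 51.5 and 58.6 CPM in NC siRNA replicates 1 to 3, and 35.5, 36.6 and 41.6 CPM in BNC2 siRNA replicates 1 to 3. It was thus down-regulated without overlap between the groups (log2 fold change -0.63, standard error 0.09, adjusted p = 8.2e-06 by edgeR's quasi-likelihood test), to 64.7% of the control level. All 5 mesenchymal markers (VIM, CDH2, FN1, ZEB1 and SPARC) were above 1 CPM in every library, with a summed level of 6367 to 6461 CPM in NC siRNA and 6501 to 6755 CPM in BNC2 siRNA. Within this sum, which VIM and SPARC dominate, CDH2 (log2 fold change 1.36), FN1 (0.39), ZEB1 (0.34) and VIM (0.18) were called higher and SPARC (-0.52) lower. The 7 epithelial markers summed to 0.542 to 0.958 CPM in NC siRNA and 0.872 to 1.35 CPM in BNC2 siRNA, with EPCAM and ESRP1 at 0 counts throughout, and the 3 endothelial markers summed to at most 0.560 CPM, with CDH5 at 0. Of the 4 leukocyte markers, PTPRC, CD3E and LYZ together stayed at or below 0.542 CPM, while CD68, which other cells also use as a lysosomal protein, lay at 111 to 125 CPM in NC siRNA and 138 to 150 CPM in BNC2 siRNA and was called higher (log2 fold change 0.29, edgeR adjusted p = 0.00041).

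Because TEAD proteins recognise the letters GGAATG, the promoters of the genes (250 bases before to 50 bases after each RefSeq start site) were searched for GGAATG on both strands, and for the AP-1 motif TGANTCA, which often lies near TEAD sites. RefSeq promoters were matched for 7 of the 10 genes, with 9 start sites, and not for CYR61, TEAD1 and TEAD4, which were not searched. Each 300-base promoter of the GRCh38.p14 table was placed on GRCh37 (hg19) by an exact match. GGAATG was held by 5 of the genes, in 5 of 9 promoters, while 14.0% of all 35116 promoters of that length held it. The windows below show these matches within 30 bases of the gene's own strand, 5′ to 3′, with the motif in capitals (CATTCC is GGAATG on the other strand).
CTGF, chr6:132272664-132272693, minus strand: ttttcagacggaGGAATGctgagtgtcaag
CTGF, chr6:132272595-132272624, minus strand: ggtggggaGGAATGcgaGGAATGtccctgt
ANKRD1, chr10:92681047-92681076, minus strand: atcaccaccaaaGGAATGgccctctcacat
ANKRD1, chr10:92680955-92680984, minus strand: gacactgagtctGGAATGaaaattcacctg
AMOTL2, chr3:134093341-134093370, minus strand: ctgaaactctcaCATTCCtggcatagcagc
LATS2, chr13:21635699-21635728, minus strand: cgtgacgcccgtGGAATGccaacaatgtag
YAP1, chr11:101981004-101981033, plus strand: cgggagtgtgcaGGAATGtagcaacttgca

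CTGF carried 3 matches, beginning 169, 104 and 95 bases upstream of its start site, and 45 of all promoters (0.128%) held 3 or more. ANKRD1 carried a pair, beginning 220 and 128 bases upstream, and 1.37% of all promoters held 2 or more. The single match of AMOTL2 began 69 bases upstream of 1 of its 2 start sites, that of YAP1 162 bases upstream, and that of LATS2 began at base 10 of the transcript. No match was found in the promoters of WWTR1 (2 start sites) and AMOTL1. The AP-1 motif was found only in ANKRD1, beginning 195 bases upstream and overlapping no TEAD motif, while 7.71% of all promoters held it. These matches are letters in a window, and no binding was measured. CTGF, ANKRD1, AMOTL2 and LATS2 were listed as known readouts of YAP1 and TAZ, so their matches are no independent result, and the shares were not tested.

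**Figure D1:**
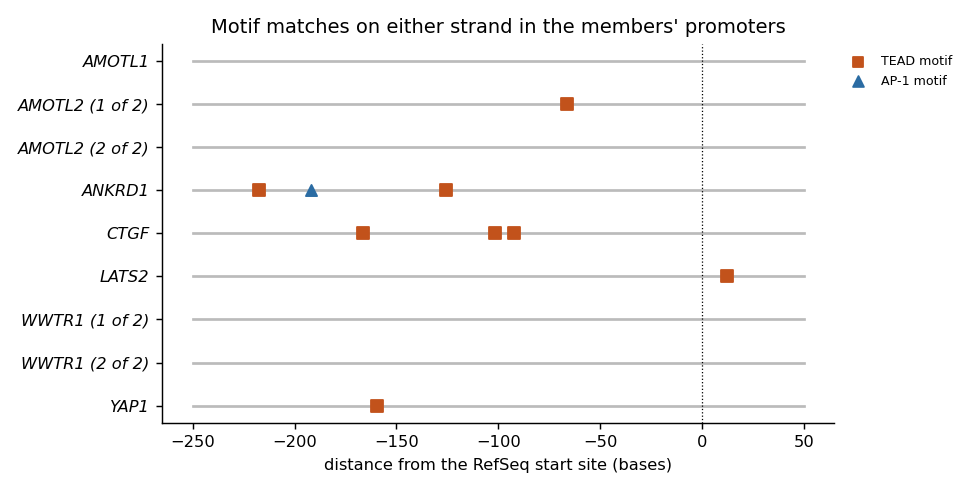
Positions of TEAD motif (squares) and AP-1 motif (triangle) matches on either strand in the 9 RefSeq promoters, drawn by distance in bases from the start site (dotted line). CTGF held 3 TEAD matches, ANKRD1 2 TEAD matches and 1 AP-1 match, and AMOTL2, LATS2 and YAP1 1 TEAD match each.

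BNC2 knockdown split the 10 genes. Of these, 5 were up-regulated (CYR61, CTGF, ANKRD1, AMOTL2 and LATS2), 3 were down-regulated (WWTR1, AMOTL1 and TEAD4), and YAP1 and TEAD1 did not pass the threshold of an adjusted p of 0.05 in edgeR's quasi-likelihood test over 12186 genes. These 8 calls of 10 stand beside a background in which 72.9% of all genes tested were called, 36.6% higher and 36.2% lower, so that the share called among the 10 genes is close to that of all genes. In the same 8 genes the 3 libraries of one group did not overlap the 3 of the other, which held for 74.9% of all genes tested. ANKRD1 passed the low-count filter through the BNC2 siRNA libraries alone and therefore had to differ, as did all 76 genes of that kind. Without it, 4 of 9 genes were up-regulated and 3 down-regulated. The median log2 fold change was 0.20 over the 10 genes and 0.06 without ANKRD1, against 0.0014 over all genes tested. With scaling by total counts it was 0.12 over the 10 genes and -0.07 over all genes. In bulk RNA, fewer cells expressing a gene and less RNA per cell cannot be told apart.

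**Figure D2:**
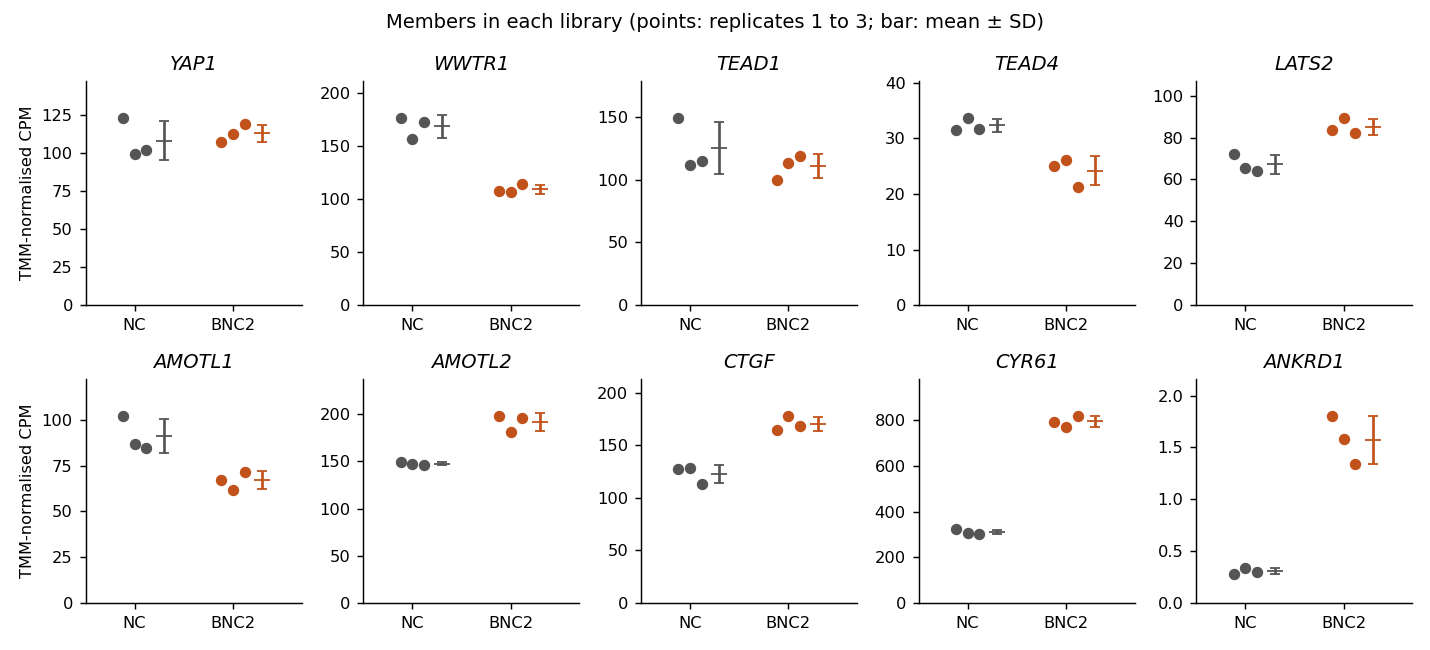
TMM-normalised CPM of each gene in every library, on axes that begin at 0, with NC siRNA in grey and BNC2 siRNA in orange, and the mean ± SD of 3 libraries beside the points. The groups are apart in all panels other than YAP1 and TEAD1.

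The co-activators behaved differently from each other. WWTR1 (chr3:149235022-149454501, minus strand) measured 176, 157 and 173 CPM in NC siRNA replicates 1 to 3, and 108, 106 and 114 CPM in BNC2 siRNA replicates 1 to 3. Every BNC2 siRNA library lay below every NC siRNA library, and the level fell to 64.8% of control (log2 fold change -0.63, standard error 0.06, edgeR adjusted p = 1.1e-07). YAP1 (chr11:101981178-102104155, plus strand) measured 123, 99.7 and 102 CPM in NC siRNA and 108, 112 and 119 CPM in BNC2 siRNA. The groups overlapped, the highest library being NC siRNA replicate 1, and the log2 fold change of 0.06 (standard error 0.08) was within the spread between libraries (edgeR adjusted p = 0.46). Leaving out NC siRNA replicate 1 gave 0.16 with an edgeR adjusted p of 0.022, and scaling by total counts alone gave -0.01. Added up per kilobase of transcript, YAP1 and WWTR1 came to 53.5 ± 4.09 CPM per kb in NC siRNA and 42.6 ± 1.76 CPM per kb in BNC2 siRNA (SD, n = 3 libraries each), without overlap between the groups. This sum was not among the planned comparisons and carries no test, and it largely restates the fall of WWTR1. Of all single genes tested, 74.9% did not overlap either.

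Within each library, the ratio of 2 genes is independent of the scaling. The log2 ratio of YAP1 to WWTR1 counts was -0.52, -0.65 and -0.77 in NC siRNA and -0.0023, 0.08 and 0.06 in BNC2 siRNA. WWTR1 thus had more counts than YAP1 in every control library, and the pair was close to even after BNC2 knockdown, with canonical transcripts of 5037 and 5401 bases. The shift of 0.69 (standard error 0.08) had an exact two-sided permutation p of 0.1, the smallest that 3 against 3 libraries allow, and an adjusted p of 0.13 over the 4 ratios tested by permutation.

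TEAD4 (chr12:3068496-3149842, plus strand) measured 31.6, 33.6 and 31.8 CPM in NC siRNA and 25.1, 26.2 and 21.2 CPM in BNC2 siRNA. All 3 knockdown libraries lay below the controls, and the log2 fold change was -0.42 (standard error 0.09, edgeR adjusted p = 0.00046). TEAD1 (chr11:12695968-12966284, plus strand) measured 149, 112 and 115 CPM in NC siRNA and 100, 113 and 119 CPM in BNC2 siRNA. NC siRNA replicate 1 stood above the other 5 libraries, which lay between 100 and 119 CPM, and the log2 fold change of -0.18 (standard error 0.09) did not pass the threshold (edgeR adjusted p = 0.10). This call turned on single libraries and settings. It was -0.25 (edgeR adjusted p = 0.031) without NC siRNA replicate 2, -0.23 (edgeR adjusted p = 0.040) without NC siRNA replicate 3 and -0.04 (edgeR adjusted p = 0.62) without NC siRNA replicate 1. With scaling by total counts it was -0.25 (edgeR adjusted p = 0.025), and without a low-count filter -0.15 (edgeR adjusted p = 0.049). The log2 ratio of TEAD1 to TEAD4 overlapped between the groups, with 1.94 ± 0.26 in NC siRNA and 2.20 ± 0.26 in BNC2 siRNA (SD, n = 3 each). That difference of 0.26 (standard error 0.21) had an exact permutation p of 0.3.

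Long transcripts as a class stood highest within each group in the same libraries as YAP1 and TEAD1. The deviation from the group mean of 2270 genes with transcripts of at least 6000 bases, minus that of 2720 genes with transcripts under 2000 bases, was 0.15 (log2) in NC siRNA replicate 1, -0.08 in replicate 2 and -0.07 in replicate 3. In BNC2 siRNA it was -0.12 in replicate 1, 0.0013 in replicate 2 and 0.11 in replicate 3. The canonical transcripts of YAP1 and TEAD1 have 5401 and 9417 bases, so that YAP1 lies below the bound of 6000. Their highest library within each group was also the one with the highest value of this measure. The same held for WWTR1 (5037 bases), AMOTL1 (8980 bases) and CYR61 (2278 bases), so it was particular neither to YAP1 and TEAD1 nor to long transcripts. Between the groups, the median log2 fold change was 0.22 for the long transcripts and -0.16 for the short ones. The part of transcript length in the results of YAP1 and TEAD1 was not tested.

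Of the inhibitors, LATS2 (chr13:21547175-21635725, minus strand), the kinase that phosphorylates YAP1 and TAZ, measured 72.2, 65.5 and 63.9 CPM in NC siRNA and 83.6, 89.1 and 82.1 CPM in BNC2 siRNA. It was up-regulated 1.26-fold without overlap (log2 fold change 0.34, standard error 0.07, edgeR adjusted p = 0.00023). The angiomotin-like genes, whose products bind YAP1 at cell junctions, moved in opposite directions. AMOTL2 (chr3:134074189-134094321, minus strand) lay at 149, 147 and 146 CPM in NC siRNA and 198, 181 and 196 CPM in BNC2 siRNA, a 1.30-fold increase (log2 fold change 0.38, standard error 0.06, edgeR adjusted p = 1.4e-05). AMOTL1 (chr11:94439597-94609913, plus strand) lay at 102, 86.8 and 84.6 CPM in NC siRNA and 67.2, 61.9 and 71.6 CPM in BNC2 siRNA, a decrease to 73.4% of control (log2 fold change -0.45, standard error 0.08, edgeR adjusted p = 7.1e-05). The log2 ratio of AMOTL1 to AMOTL2 was -0.70 ± 0.13 in NC siRNA and -1.52 ± 0.06 in BNC2 siRNA (SD, n = 3 each). It fell by 0.82 (standard error 0.08) without overlap, with an exact permutation p of 0.1 and an adjusted p of 0.13 over the 4 ratios.

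The secreted matricellular proteins CTGF and CYR61 are the classic YAP/TAZ target genes, and both transcripts rose, CYR61 by far the more. CYR61 (chr1:86046444-86050272, plus strand) measured 322, 306 and 302 CPM in NC siRNA and 794, 772 and 818 CPM in BNC2 siRNA. This 2.56-fold increase (log2 fold change 1.36, standard error 0.05, edgeR adjusted p = 2.1e-12) was many times the spread within either group, and 3.86% of all genes tested rose as much or more. CTGF (chr6:132269316-132272512, minus strand) measured 127, 129 and 113 CPM in NC siRNA and 164, 178 and 169 CPM in BNC2 siRNA. It rose 1.38-fold without overlap (log2 fold change 0.47, standard error 0.06, edgeR adjusted p = 3.9e-06). The log2 ratio of CTGF to CYR61 was accordingly -1.34 ± 0.08 in NC siRNA and -2.22 ± 0.09 in BNC2 siRNA (SD, n = 3 each), a shift of -0.89 (standard error 0.07) with an exact permutation p of 0.1 and an adjusted p of 0.13 over the 4 ratios.

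ANKRD1 (chr10:92671853-92680844, minus strand), an ankyrin repeat protein best known from stressed heart muscle and also a common YAP/TAZ readout, was barely expressed. It had 5, 6 and 5 counts in NC siRNA and 31, 28 and 21 counts in BNC2 siRNA, which is 0.282 to 0.336 CPM and 1.34 to 1.80 CPM. Its log2 fold change of 2.34 (standard error 0.35, edgeR adjusted p = 1.5e-05) was the largest of the 10 and the least precise, and ANKRD1 is the gene that had to differ to pass the filter.

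**Figure D3:**
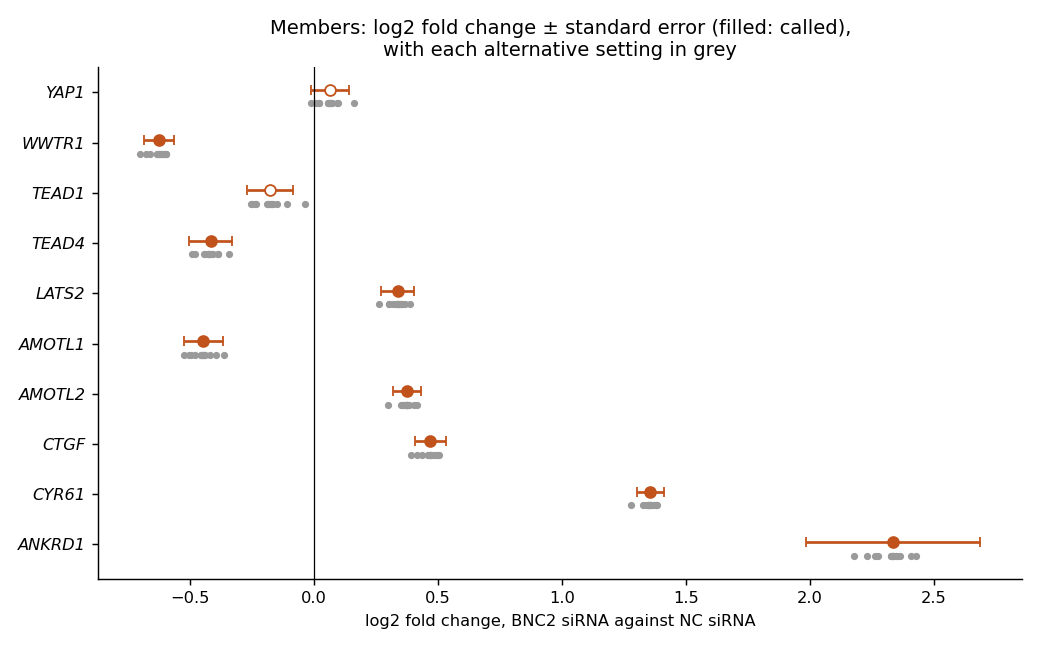
Log2 fold change ± standard error of each gene (filled circles called at an adjusted p of 0.05, open circles not called), with the values under each of 14 alternative settings as grey points below. The 8 called genes kept their sign in every setting drawn, while the points of YAP1 run from -0.01 to 0.16 and those of TEAD1 from -0.25 to -0.04.

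**Figure D4:**
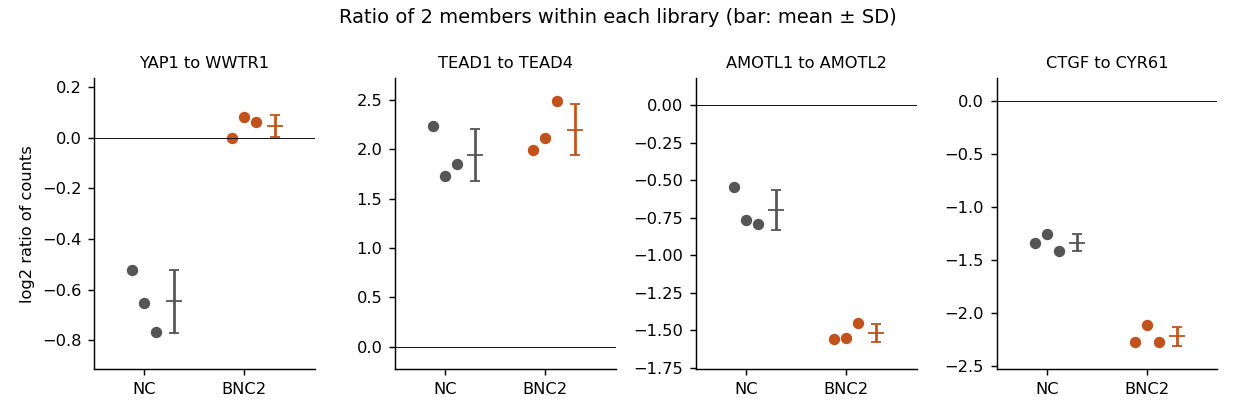
Log2 ratio of the counts of 2 genes within each library, for 4 pairs, with the mean ± SD of 3 libraries beside the points and a line at 0 (equal counts). The groups are apart for YAP1 to WWTR1, AMOTL1 to AMOTL2 and CTGF to CYR61, and overlap for TEAD1 to TEAD4.

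Levels can be compared between genes only per transcript length. Per kilobase of the canonical transcript, CYR61 stood first in NC siRNA with 136 ± 4.61 CPM per kb, followed by CTGF with 52.6 ± 3.57, WWTR1 with 33.5 ± 2.09, AMOTL2 with 30.3 ± 0.260 and YAP1 with 20.0 ± 2.37 (SD, n = 3 libraries). The lower levels per kilobase were TEAD4 with 18.9 ± 0.648, TEAD1 with 13.3 ± 2.19, LATS2 with 12.1 ± 0.788, AMOTL1 with 10.2 ± 1.05 and ANKRD1 with 0.171 ± 0.0154 CPM per kb. Among neighbours in this order, YAP1 overlapped TEAD4 and TEAD1 overlapped LATS2, and the others were apart. After BNC2 knockdown, CYR61 with 349 ± 10.2 CPM per kb and CTGF with 72.9 ± 2.95 CPM per kb were still first, and AMOTL2 with 39.3 ± 1.88 CPM per kb stood above WWTR1 with 21.7 ± 0.798. In those libraries the ranges of WWTR1 and YAP1 overlapped, as did those of LATS2 and TEAD4 and those of TEAD4 and TEAD1, and the other neighbours were apart. With the length of all exons joined instead, AMOTL2 already stood above WWTR1 in NC siRNA (22.8 against 20.2 CPM per kb), and WWTR1 fell below YAP1 and LATS2 in BNC2 siRNA (13.1 against 17.9 and 15.1 CPM per kb). The order of these genes therefore depends on the transcript assumed.

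The relatives of these genes were listed as TEAD2, TEAD3, LATS1, AMOT, the TEAD co-factors VGLL1 to VGLL4, the other CCN genes NOV, WISP1, WISP2 and WISP3, and the ankyrin repeat genes ANKRD2 and ANKRD23. Of these 14, 7 passed the filter, of which 3 were up-regulated, 3 down-regulated and 1 not called, which is 85.7% called against 72.9% of all genes (36.6% higher and 36.2% lower). Without ANKRD23, which passed the filter through 1 group only, 3 of 6 were up-regulated and 2 down-regulated, which is 83.3% called. TEAD2 rose the most, from 35.9, 36.6 and 36.2 CPM in NC siRNA to 72.8, 68.8 and 71.4 CPM in BNC2 siRNA (log2 fold change 0.97, standard error 0.06, edgeR adjusted p = 9.7e-10). TEAD3 fell from 9.58, 10.2 and 11.1 CPM to 5.58, 4.40 and 7.07 CPM (log2 fold change -0.86, standard error 0.15, edgeR adjusted p = 8.8e-05). With TEAD4 down, the 4 TEAD genes thus did not move as one.

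Per kilobase of canonical transcript, TEAD2 made up 31.9% ± 1.13 of the summed TEAD level in NC siRNA and 54.0% ± 1.47 in BNC2 siRNA (SD, n = 3 each). The share of TEAD4 went from 36.2% ± 1.88 to 23.4% ± 2.49 of the summed TEAD level, that of TEAD1 from 25.3% ± 3.43 to 19.5% ± 1.78, and that of TEAD3 from 6.59% ± 0.657 to 3.15% ± 0.747. The leading TEAD transcript by this measure was TEAD4 in NC siRNA and TEAD2 in BNC2 siRNA. Summed over the 4 genes, the level was 52.3 ± 1.5 CPM per kb in NC siRNA and 60.4 ± 0.215 CPM per kb in BNC2 siRNA, without overlap. These sums were formed after the single genes had been seen and carry no test.

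Among the other relatives, LATS1 rose (log2 fold change 0.22, standard error 0.08, edgeR adjusted p = 0.018), in the same direction as LATS2 and by less, but its call was lost without NC siRNA replicate 2 (0.14, edgeR adjusted p = 0.12), without BNC2 siRNA replicate 3 (0.18, edgeR adjusted p = 0.076) and with scaling by total counts (0.14). AMOT, at 2.83 to 4.28 CPM in NC siRNA and 4.01 to 6.04 CPM in BNC2 siRNA, was called higher (log2 fold change 0.51, standard error 0.20, edgeR adjusted p = 0.029) although the groups overlapped. That call was lost in DESeq2 (adjusted p = 0.050), with total counts (edgeR adjusted p = 0.060), and without NC siRNA replicate 2, NC siRNA replicate 3 or BNC2 siRNA replicate 2 (log2 fold changes 0.47, 0.38 and 0.33). VGLL4, a co-factor that competes with YAP1 for TEAD binding, fell (log2 fold change -0.30, standard error 0.07, edgeR adjusted p = 0.0012), though not past the threshold with counts of both strands (-0.15, edgeR adjusted p = 0.095). VGLL3 was not called at a log2 fold change of 0.21 (standard error 0.09, edgeR adjusted p = 0.060), and was called at 0.34 without NC siRNA replicate 1, at 0.25 without BNC2 siRNA replicate 1, at 0.23 without the low-count filter and at 0.21 with filterByExpr. Its log2 fold change ran from 0.10 to 0.34 when single libraries were left out, and was 0.13 with total counts (edgeR adjusted p = 0.24). ANKRD23 passed the filter through the NC siRNA libraries alone, so that it too had to differ, with 29, 32 and 19 counts in NC siRNA and 17, 11 and 9 counts in BNC2 siRNA (log2 fold change -1.06, standard error 0.32, edgeR adjusted p = 0.0070). VGLL1, VGLL2, NOV, WISP1, WISP2, WISP3 and ANKRD2 had 0 to 18 counts per library and were not tested. CTGF and CYR61 were therefore the only CCN genes of the 6 with levels above the filter.

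Upstream, a list of 28 Hippo kinases, scaffolds and regulators was read from the same fit. Of the 27 tested, 12 were up-regulated, 8 down-regulated and 7 not called, which is 74.1% called against 72.9% of all genes, and the median log2 fold change was 0.12. The median was 0.071 without BNC2 siRNA replicate 3, and 0.044 with scaling by total counts, where 10 genes were called higher and 10 lower. By transcript length, the 13 genes of at least 6000 bases had a median of 0.22, as did all long transcripts, and the 14 genes of 2000 to 6000 bases a median of -0.07. MOB4, with 0 to 4 counts per library, was not tested. The largest rises were TAOK1 (log2 fold change 1.16), STRN (0.68), AJUBA (0.65) and SIKE1 (0.64). TAOK1, a kinase that activates MST1 and MST2, measured 145, 104 and 121 CPM in NC siRNA and 244, 269 and 315 CPM in BNC2 siRNA, while AJUBA is a LIM protein that inhibits LATS kinases, and STRN and SIKE1 belong to the STRIPAK complex, which holds MST1 and MST2 inactive.

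The largest falls among the upstream genes were TAOK3 (log2 fold change -1.07), LIMD1 (-0.98), SAV1 (-0.70) and STK3 (-0.68). TAOK3, a relative of TAOK1, went the other way, from 87.8, 101 and 106 CPM in NC siRNA to 44.3, 51.2 and 45.4 CPM in BNC2 siRNA. LIMD1, another LIM inhibitor of LATS kinases, measured 146, 127 and 122 CPM in NC siRNA and 64.2, 67.0 and 69.0 CPM in BNC2 siRNA. STK3, which encodes MST2, and SAV1, its scaffold, fell together to 62.4% and 61.6% of control, and STK4, which encodes MST1, was called lower (log2 fold change -0.14, edgeR adjusted p = 0.048), a call that was lost in 9 of 14 alternatives. These were edgeR's likelihood ratio test (-0.14, adjusted p = 0.051), the replicate block (-0.14), filterByExpr (-0.13), no low-count filter (-0.11), both strands (-0.14), leaving out control replicate 1 (-0.11) or 3 (-0.14), and leaving out knockdown replicate 1 (-0.09, edgeR adjusted p = 0.23) or 2 (-0.16). Activating and inhibiting components thus stood on both sides.

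Of 17 further genes of a commonly used YAP/TAZ target signature, without those already described, 16 were tested and FOXF2 had no counts. Of these, 9 were up-regulated, 3 down-regulated and 4 not called (CRIM1, FJX1, CCDC80 and NUAK2), with a median log2 fold change of 0.75, against 0.0014 for all genes. CRIM1 (-0.12) was called lower with total counts (-0.20, edgeR adjusted p = 0.012) and without BNC2 siRNA replicate 3 (-0.19, edgeR adjusted p = 0.026), and NUAK2 (0.17) was called higher without the low-count filter (0.20, edgeR adjusted p = 0.048) and without BNC2 siRNA replicate 2 (0.23, edgeR adjusted p = 0.039). In the other direction, CRIM1 came to as little as -0.073 when single libraries were left out, and NUAK2 was 0.094 with total counts (edgeR adjusted p = 0.31). In the main fit, 75% of the list was called, close to the background of 72.9%, with more rises than falls where all genes had about equal shares. F3 passed the filter through the BNC2 siRNA libraries alone, and without it 8 of 15 were up-regulated with a median of 0.66. By transcript length, the median was 0.41 over the 8 genes of at least 6000 bases, beside 0.22 for all such transcripts, and 0.89 over the 7 genes of 2000 to 6000 bases, beside 0.0030. The 1 gene under 2000 bases, GADD45A, stood at -3.25, beside a median of -0.16 for all such transcripts. The part of transcript length in the results of these lists was not tested, and no test was made of a list as a whole.

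The largest rise of this list was that of RBMS3, which encodes an RNA-binding protein, from 7.38, 8.23 and 7.34 CPM in NC siRNA to 37.0, 39.4 and 41.2 CPM in BNC2 siRNA (log2 fold change 2.36, standard error 0.09, edgeR adjusted p = 1.9e-12). AXL, a receptor tyrosine kinase, followed with 549, 517 and 571 CPM in NC siRNA and 1626, 1644 and 1680 CPM in BNC2 siRNA (log2 fold change 1.60, standard error 0.06, edgeR adjusted p = 4.6e-13). F3, which encodes tissue factor, had 15 counts in each NC siRNA library and 41, 44 and 41 counts in BNC2 siRNA (log2 fold change 1.52), and DOCK5, a guanine nucleotide exchange factor, rose by 1.12. In the other direction, GADD45A, a growth arrest and DNA damage gene, dropped from 161, 168 and 180 CPM to 16.2, 18.8 and 18.7 CPM, which is 10.5% of control (log2 fold change -3.25, standard error 0.08, edgeR adjusted p = 3.6e-15). ASAP1, an ARF GTPase-activating protein, fell by 1.46 and MYOF, a membrane repair protein, fell by 0.34 on the log2 scale. RefSeq promoters were matched for 12 of the 17 genes, with 13 start sites, of which 5 (38.5%) held GGAATG, against 14.0% of all promoters. Since the list holds known targets, this share is no independent result, and it was not tested.

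**Figure D5:**
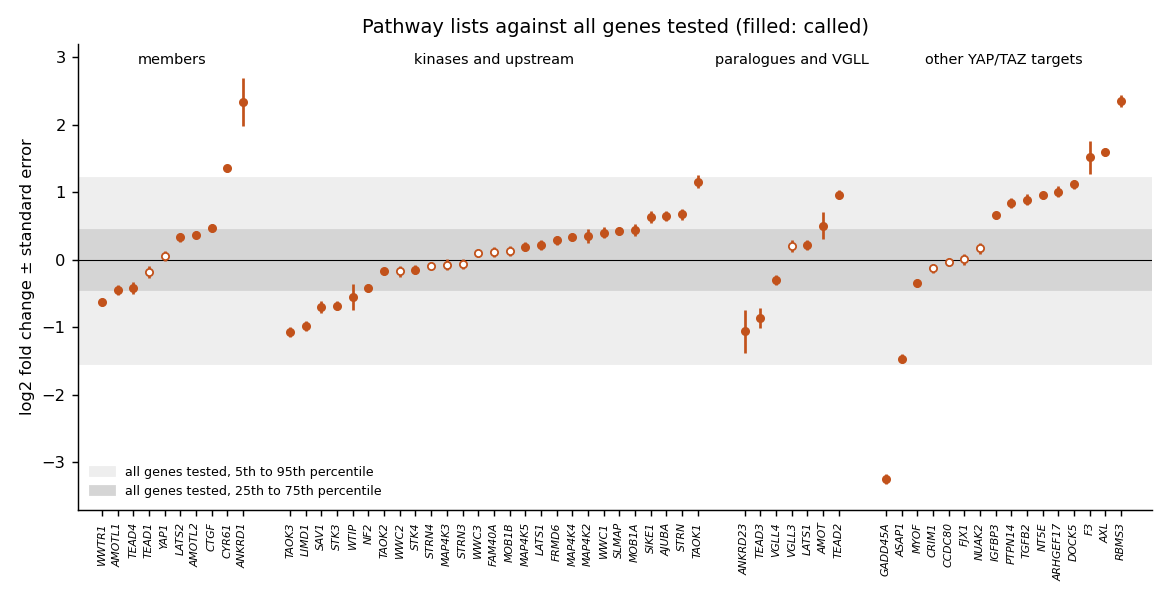
Log2 fold change ± standard error of every tested gene of the 4 lists, sorted within each list (filled circles called, open circles not called), over bands that hold the middle of all 12186 genes (dark, 25th to 75th percentile, -0.44 to 0.44, and light, 5th to 95th percentile, -1.54 to 1.22). LATS1 is drawn in both lists that hold it, and GADD45A, RBMS3, AXL, F3, CYR61 and ANKRD1 lie outside the light band.

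The most similar genes were sought for the 3 genes with the largest changes among the 10. Likeness was the distance between log2 CPM patterns over the 6 libraries, among 10296 genes with a mean of at least 5 CPM. The pattern of CYR61 was nearest to those of PNRC2 (log2 fold change 1.37, distance 0.0721), NOLC1 (1.40, distance 0.0729) and CDH2 (1.36, distance 0.0758), the last being N-cadherin. WWTR1 was nearest to C2CD2L (log2 fold change -0.62, distance 0.0538), the protease gene ADAM17 (-0.65, distance 0.0817) and CAPZA2 (-0.58, distance 0.0821). ANKRD1 was nearest to PMEPA1 (log2 fold change 1.96, distance 0.224), SREBF1 (1.94, distance 0.226) and TGFBI (2.13, distance 0.228). These log2 CPM include a prior count of 2, which makes the change of a gene with few counts, such as ANKRD1 (2.34), smaller. ANKRD1 also passed the low-count filter through the BNC2 siRNA libraries alone, so that its pattern was partly fixed by that filter. With 2 groups of 3 libraries, such likeness mostly says that the fold changes are of one size.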

How the data were processed

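Poly(A) libraries were sequenced by the authors for 75 cycles, single-end, and mapped with STAR 2.6.1d to hg19 with iGenomes UCSC annotation. They deposited raw gene counts, whose series table holds the reverse-strand counts, and STAR counts uniquely mapped reads that overlap 1 gene. Reads assigned to no gene (37.7% to 41.1% of a library) were left out. Genes above 1 CPM in at least 3 of 6 libraries were tested with edgeR 4.0.16 in R 4.3.3 (TMM factors 0.972 to 1.04, quasi-likelihood test, Benjamini-Hochberg adjustment over all 12186 genes, called at 0.05). The authors' methods state edgeR's likelihood ratio test, which was an alternative, as were DESeq2 1.42.0, its size factors, total counts, no low-count filter (at least 1 count in total), filterByExpr, a replicate block, both strands and leaving out each library. Scripts were tested on simulated data.

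The genes and lists were chosen with earlier results of these data known. Named were the 10 genes, BNC2, all relatives, the 4 largest called rises and falls of each other list, and the 3 nearest patterns of 3 genes, by Euclidean distance of centred log2 CPM; further genes were named after their values were seen. Ratios were compared by exact two-sided permutation over libraries (scipy 1.17.1). Positions and lengths come from GENCODE 44 mapped to GRCh37, and a symbol was matched for 91.6% of the table. WWTR1-AS1, a gene on the strand opposite to WWTR1, is counted separately by strand.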

Additional observations from a re-analysis of the deposited data

Results flagged for a closer look

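Reads on the strand opposite to CYR61, which enter none of the comparisons except the alternative with both strands, were more frequent after BNC2 knockdown than in each control library. They came to 3.09 ± 0.545 CPM in NC siRNA (56, 43 and 58 counts) and 4.41 ± 0.879 CPM in BNC2 siRNA (70, 99 and 62 counts; SD, n = 3 libraries each, CPM by total counts). As a share of the reads on both strands they went the other way, from a mean of 0.964% to 0.570%, since the sense reads rose more. The cause was not tested. Of the 10 genes, CYR61 was the only one whose opposite-strand CPM in all 3 knockdown libraries exceeded those in all 3 control libraries. For YAP1, WWTR1, TEAD1, TEAD4, AMOTL1 and AMOTL2 it was lower in all 3 knockdown libraries than in all 3 control libraries. That of YAP1, for example, was 1.75 ± 0.222 CPM in NC siRNA and 1.01 ± 0.36 CPM in BNC2 siRNA. Over all genes, opposite-strand counts per library were 350780 to 379432 in NC siRNA and 261496 to 345051 in BNC2 siRNA.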

How the results depend on the processing

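The 8 called genes kept their direction and their call in all 112 values over 14 alternative settings. The log2 fold change of YAP1 became -0.013 with total counts alone and ran from 0.0083 to 0.16 when libraries were left out. That of TEAD1 passed the threshold with total counts (-0.25) and without the low-count filter (-0.15), and ran from -0.25 to -0.037 when libraries were left out. Total counts moved the median of all genes to -0.07, that of the 10 genes to 0.12, that of the upstream list to 0.044, that of the targets to 0.68 and that of the relatives to 0.13. The relatives called higher then numbered 1, as they did without NC siRNA replicate 2 (range 1 to 4), and their median ran from 0.10 to 0.28 without single libraries. Without the low-count filter, the median of all genes was -0.07 and that of the relatives -0.27, over 13 genes. FJX1 changed sign in DESeq2 (-0.0014), with its size factors (-0.0013) and with total counts (-0.069), and ran from -0.061 to 0.063 without single libraries, as CCDC80 did from -0.071 to 0.020. Added after seeing the data, leaving out genes above 1 CPM in 1 group only gave medians of 0.064 for the 10 genes and 0.66 for the targets. Same-numbered libraries correlated negatively (-0.37, -0.14 and -0.20 over 10296 genes), so no pairing by number was seen. These correlations may carry the deviation by transcript length, which was 0.15 in NC siRNA replicate 1 and -0.12 in BNC2 siRNA replicate 1. They therefore cannot tell whether same-numbered libraries were handled together. With the replicate block, 8400 genes were called, 5 of the 10 genes higher and 3 lower. Counts of 21 to 31 limit ANKRD1, the level given for 3 counts covers counting error only, and p-values reflect the spread between 3 libraries per group of 1 cell line.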
